A study of Mus musculus with 42 samples.

Results

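A set of 10 genes of MHC class I antigen presentation were followed through all libraries of a mouse RNA-seq study of arterial intima and cultured endothelium. They were chosen by name, by a rule that uses no measured value but was written with earlier results of these data known, and all 10 were found among the 21674 named genes of the expression table. They comprise the heavy chains H2-K1 and H2-D1, the light chain B2m, the peptide transporter subunits Tap1 and Tap2, the loading factor Tapbp, the inducible proteasome subunits Psmb8, Psmb9 and Psmb10, and the transactivator Nlrc5.

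Class I molecules display peptides from proteins made inside the cell to CD8 T cells. Proteasomes cut the proteins, Tap1 and Tap2 carry the peptides into the endoplasmic reticulum, and tapasin (encoded by Tapbp) holds the empty heavy chain and B2m at the transporter until a peptide binds. Interferons raise the whole set: Psmb8, Psmb9 and Psmb10 then replace the constitutive subunits Psmb5, Psmb6 and Psmb7 to form the immunoproteasome, and Nlrc5 acts on the class I promoters. Endothelial cells carry class I constitutively.

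The libraries of carotid intima came from pools of 3 to 5 arterial flushes. Partial ligation of the left carotid gives low flow in that artery and high flow in the contralateral one. Wild-type male C57BL/6J mice of 6 to 7 weeks gave 3 untreated pools each of low-flow, high-flow and sham-operated intima at 48 hr, named here a, b and c. Further mice were ligated and received an antibody against platelets (anti-GPIba), an antibody against granulocytes (anti-Gr1, given before ligation) or control IgG, or, at ligation, liposomes with clodronate, which kill phagocytes, or with PBS. Each of these 5 treatments has 2 low-flow libraries at 48 hr, and IgG and PBS liposomes also have 2 high-flow libraries each. At 7 d, mice with Rbfox2 deleted in endothelium (EC-KO) were compared with littermate controls. Both carried Rbfox2 lox/lox and the reporter Rosa26-mTmG, and the EC-KO alone had Cdh5(PAC)-CreERT2, an inducible Cre under an endothelial promoter. Both sexes were used, at 2 to 7 months, with 3 low-flow and 2 high-flow libraries per genotype, numbered 1, 4 and 5 or 4 and 5 as in the names of the columns. Another 4 libraries came from 1 aortic endothelial line with a doxycycline-dependent SV40 T antigen, which was switched off, either untreated or exposed for 48 hr to 10% plasma, to platelets with macrophages, or to all of these. A further 3 libraries came from primary aortic endothelial cells, 1 sorted on eGFP, 1 Rbfox2 control and 1 Rbfox2 KO. A low-flow pair of clodronate and PBS libraries of 100 bp reads, from an earlier sequencing set, was kept apart.

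Total counts ranged from 4064477 to 19035957 per library over the 42 libraries, and from 4064477 to 6794904 in the untreated pools. The 10 genes took 0.494% to 1.93% of the counts of a library over 33 artery libraries. Nlrc5 had the fewest counts, 9 to 530 per library, and its values carry the largest counting error. Endothelial markers took 0.411% to 1.1% of the counts of the low-flow libraries and 0.886% to 1.8% of those at high flow or sham, whereas macrophage markers took 0.0255% to 0.341% and 0.00715% to 0.0666%. In such bulk libraries, fewer cells of a type and less RNA per cell cannot be told apart. A pair of untreated low-flow pools stood apart: Actb was at 106410 FPKM in pool a and 105305 in pool b against 19114 in pool c, and their TMM scaling factors were 0.569 and 0.549 against 1.12 to 1.27 in the other 7 pools.

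By GENCODE vM1 on mm9, 7 of the 10 are on chromosome 17, 2 (Psmb10 and Nlrc5) on chromosome 8 and B2m is on chromosome 2. Psmb9 (chr17:34318933-34324709, minus strand), Tap1 (chr17:34324498-34334170, plus), Psmb8 (chr17:34334666-34338399, plus) and Tap2 (chr17:34340472-34353266, plus) form a run of 34.3 kb, in which Psmb9 and Tap1 face away from each other and overlap by 212 bases. H2-K1 (chr17:34132962-34137278, minus) and Tapbp (chr17:34052844-34066235, plus) lie before this run and H2-D1 (chr17:35399675-35404444, plus) after it. B2m (chr2:121973422-121978819, plus) lies within the annotated span of Patl2 on the opposite strand, and Psmb10 (chr8:108459628-108462292, minus) within that of the processed transcript Gm16156. Tapbp shares 3421 bases with Zbtb22 on the same strand, and, on the opposite strand, Psmb8 shares 2140 bases with Gm20496 and Tap2 1923 with Gm20496 and 3148 with Gm15821. Nlrc5 (chr8:96996663-97051172, plus) is annotated as a lincRNA in vM1. Whether the counts were made by strand is not given in the sources used here (the study's methods name a strand-specific setting for one alignment of the untreated pools), so reads in these overlaps may have been split between genes. H2-K1 and H2-D1 shared none of their 100-base windows with each other, and 93 of the 2381 windows of H2-D1 (3.91%) recurred in other annotated genes such as H2-Q2.

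Stretches of 4 promoters are shown to describe the genes, and a link to their levels was not tested. RefSeq promoter windows (GRCm38.p6, 300 bases each from 250 before the start) matched 8 of the 10 genes, and Tap2 and Nlrc5 are named only. Each of 4 motifs was searched on both strands and apart from the others, so that matches of different motifs may overlap. A kappa B motif, GGGNNTTCC, was found for H2-K1 and H2-D1 and in 5.82% of 32851 promoters. The interferon-stimulated response element core GAAANNGAA was found for B2m alone among the members and in 8.56% of promoters, and the interferon-gamma-activated site TTCNNNGAA for Psmb8 alone and in 8.3%. CCAAT was found for 6 of the 8 (H2-K1, H2-D1, B2m, Tap1, Tapbp and Psmb9) and in 37.4% of promoters. A match describes the sequence only. The stretches follow, 30 bases each, 5′ to 3′ on the strand of the gene, with the match in capitals and with the mm9 position found by exact match.
H2-K1 (kappa B, chr17:34137384-34137413, minus strand): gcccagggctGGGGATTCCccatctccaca
H2-D1 (kappa B, chr17:35399858-35399887, plus strand): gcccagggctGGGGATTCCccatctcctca
B2m (interferon-stimulated response element core, chr2:121973274-121973303, plus strand): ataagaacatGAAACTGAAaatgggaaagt
Psmb8 (interferon-gamma-activated site, chr17:34335033-34335062, plus strand): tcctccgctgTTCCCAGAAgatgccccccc
The H2-K1 match lies upstream of the gene as annotated in vM1, as does that of B2m. Those of H2-D1 and Psmb8 lie within the longer annotated genes, although upstream of the RefSeq start. The kappa B letters of H2-K1 and H2-D1 are the same.

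To determine how flow bears on the class I pathway, the untreated pools were compared at 48 hr. Levels are FPKM (counts per kilobase of effective transcript length, relative to the size of the library) from the deposited expected counts, with library sizes scaled by TMM, which aligns the bulk of genes between libraries. Psmb8, Psmb9, Psmb10 and Tapbp were called lower at low flow than at high flow and in sham intima. These 4 of the 10 are near the share of all genes called, 46.2% against high flow and 40.3% against sham. The Tapbp call against high flow was lost in most fits that left out 1 pool. The heavy chains, the light chain and the transporter did not pass the test. High flow and sham could not be separated for any of the 10 genes.

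Psmb10, the inducible subunit that takes the place of Psmb7, was at 52.8, 59.3 and 64.9 FPKM in low-flow pools a, b and c, at 130, 113 and 111 at high flow, and at 134, 149 and 93.3 in sham. Psmb9, which replaces Psmb6, was at 25.4, 30.3 and 44 FPKM at low flow, 97.2, 62 and 80.3 at high flow, and 82.4, 123 and 60 in sham. Psmb8, which replaces Psmb5, was at 67.8, 86 and 89.2 FPKM at low flow, 186, 141 and 122 at high flow, and 157, 252 and 123 in sham. Every low-flow pool was below every other pool for these 3 genes. Tapbp was at 89.6, 111 and 149 FPKM at low flow, 216, 201 and 222 at high flow, and 222, 340 and 161 in sham, and again no low-flow pool reached any other.

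The log2 fold-change of low against high flow was -1.0 ± 0.18 (SE, n = 3 and 3) for Psmb10, with an adjusted p of 0.00122 by edgeR's quasi-likelihood test with Benjamini-Hochberg adjustment over all genes. It was -1.25 ± 0.25 for Psmb9, -0.90 ± 0.22 for Psmb8 and -0.88 ± 0.27 for Tapbp, with adjusted p of 0.00202, 0.00722 and 0.0203 in the same edgeR fit. These were 4 of the 10 members, where 46.2% of the 11236 genes tested were called in this comparison, so that the share is near the background. All 4 were lower and none higher, and 7 of the 10 lay below 0, as did 53.1% of all genes. The groups did not overlap, with low flow below, for 4 of the 10 and for 30.1% of all genes. The median log2 fold-change was -0.59 over the members and -0.07 over all genes. The Tapbp call was lost in 5 of the 6 fits that left out 1 pool, each of which kept Psmb8, Psmb9 and Psmb10, with 35.5% to 41.4% of genes called. Against sham, the edgeR fit called the same 4 genes, with log2 fold-changes of -1.13 for Psmb10, -1.44 for Psmb9, -1.17 for Psmb8 and -1.09 for Tapbp. In that comparison 40.3% of genes were called, 8 of the 10 members and 52.2% of genes lay below 0, and 5 members and 28.4% of genes had non-overlapping groups with low flow below.

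H2-K1, a classical heavy chain, was at 667, 932 and 673 FPKM at low flow, 892, 809 and 680 at high flow, and 789, 1501 and 780 in sham. H2-D1, the other one, was at 2272, 5451 and 2118 FPKM at low flow, 4101, 2888 and 2512 at high flow, and 2827, 4200 and 2250 in sham. B2m, the light chain common to all class I molecules, was at 8948, 7021 and 3107 FPKM at low flow, 4882, 3873 and 4219 at high flow, and 4046, 6398 and 3766 in sham. The 3 groups overlapped for all 3 genes, and pools a and b at low flow held the highest values of B2m with TMM scaling. On plain library totals B2m was lower at low flow, at 3485 to 5095 FPKM against 4596 to 5445 at high flow and up to 8156 in sham, and its log2 fold-change turned from 0.55 to -0.28, neither called. Without low-flow pool c and with TMM scaling, B2m was called higher than at high flow, at 0.89 on the log2 scale, which made 5 calls where 47.8% of genes were called. The transporter subunit Tap1 was at 4.97, 9.06 and 10.2 FPKM at low flow, 8.48, 5.18 and 7.95 at high flow, and 8.3, 33.2 and 6.96 in sham. Its partner Tap2 was at 7.39, 18.9 and 18.1 FPKM at low flow, 31.3, 19.8 and 13.8 at high flow, and 20.4, 30.3 and 13.4 in sham. The transactivator Nlrc5 was at 0.532, 0.542 and 0.644 FPKM at low flow, 0.402, 0.895 and 1.34 at high flow, and 0.863, 2.78 and 0.743 in sham. Tap1 and Tap2 overlapped between all 3 groups, whereas Nlrc5 at low flow lay below all sham pools without passing the test (log2 fold-change -1.36, adjusted p = 0.0712, edgeR).

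**Figure D1:**
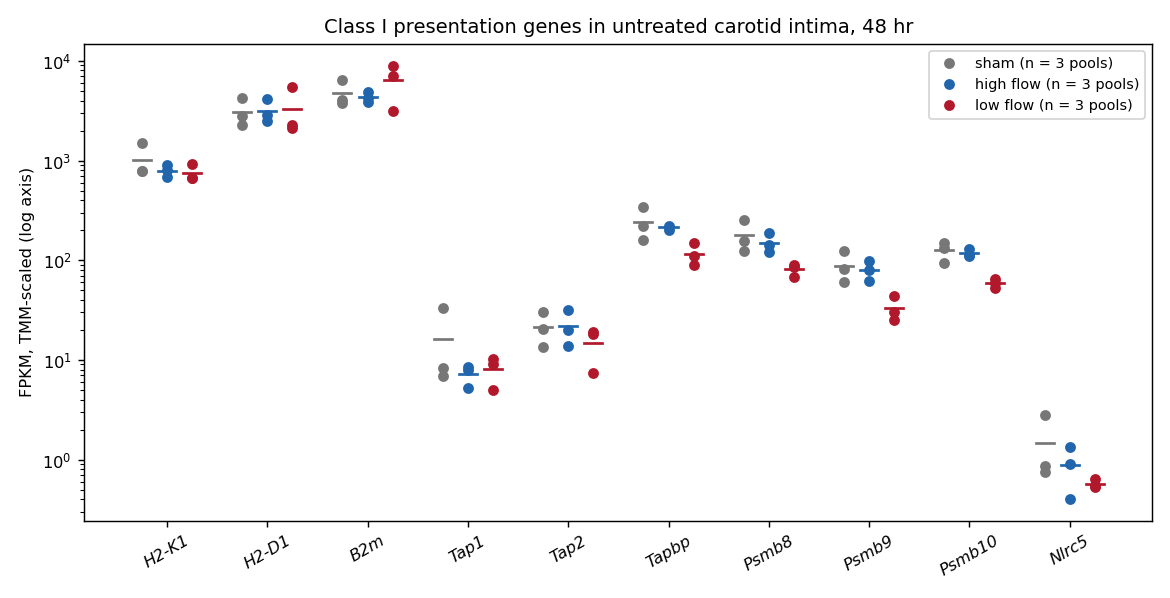
Level of each of the 10 genes (TMM-scaled FPKM, log axis) in the untreated pools at 48 hr; each point is 1 pool, each bar the mean of 3, with sham in grey, high flow in blue and low flow in red. For Tapbp, Psmb8, Psmb9 and Psmb10 the 3 low-flow pools sit below all 6 others, while B2m ranges from 3107 to 8948 at low flow alone.

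No member was called between high flow and sham by edgeR (0.00% of genes were, with 868 at an unadjusted p under 0.05, none of them members, and 101 genes but no member called by DESeq2). Sham pool b held the highest value of all 9 pools for 7 of the 10 genes, and T and NK cell markers took 0.0142% of its counts against 0.000859% to 0.00335% in the others. The part of such cells in its class I levels was not tested. Without sham pool b, Psmb8, Psmb9 and Psmb10 were still called lower at low flow than in sham, and Tapbp was not. The scaling set how many members were called. With plain library totals, 7 members were lower than at high flow (36.7% of genes called) and 9 than in sham (30.1% of genes called), but all genes then shifted by -0.69 and -0.71 on the log2 scale. With low-flow pool c alone, chosen after the data were seen because of Actb in pools a and b, and with that pool taken to vary like those it was compared with, 1 member (Psmb10) was called against high flow (22.4% of genes) and 0 against sham, where 0 genes were called in all.

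The constitutive proteasome subunits moved the other way at low flow. Psmb5, Psmb6 and Psmb7, which carry the catalytic sites of the standard proteasome, rose by 1.12, 1.08 and 0.87 on the log2 scale against high flow, 3 of 3 called by edgeR with adjusted p of 0.00522, 0.0164 and 0.00857, where 46.2% of all genes were called. A ratio of 2 genes within a library does not depend on the scaling of libraries, and was computed after the fold-changes had been seen; it is given as a description without a test. The ratio of Psmb8 to Psmb5 in FPKM was 0.199, 0.193 and 0.392 in the low-flow pools, 1.12, 0.899 and 0.881 at high flow and 1.01, 2.79 and 0.686 in sham. Each low-flow pool was below each of the other 6 in this ratio, and the mean was 3.69 times as high at high flow as at low flow. Psmb9 over Psmb6 was at 0.0419, 0.0457 and 0.148 at low flow, with pool c the highest, and at 0.352, 0.283 and 0.331 at high flow. Psmb10 over Psmb7 was at 0.236, 0.242 and 0.418 at low flow and at 1.04, 1.11 and 0.973 at high flow, again without overlap.

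The remaining genes of the pathway, from a list of 43 of which 42 were in the table and 39 tested, gave 13 calls upward and 6 downward at low against high flow by edgeR, a share of those tested close to the 46.2% of all genes called. Of 9 further class I heavy chains tested, 4 fell and none rose: H2-T22 by 1.68, H2-T23 (Qa-1, which presents to NK cell receptors) by 1.60, Mr1 (which presents metabolites to MAIT cells) by 1.37 and H2-M3 by 1.01 on the log2 scale, which as a count is again close to the 46.2% over all genes. Of 9 genes of peptide loading and trimming, 5 rose and 2 fell. Calr, Pdia3 and Canx, chaperones that serve glycoprotein folding in general, rose by 1.91, 1.85 and 1.24, whereas Tapbpl, a tapasin relative dedicated to class I, fell by 1.03. Of 3 proteasome activator subunits, Psme3 rose by 1.2, and the interferon-inducible Psme1 and Psme2, at -0.43 and -0.36, did not pass. Of 11 regulators tested, Irf8, a myeloid transcription factor, was called and rose by 5.43. Of 4 interferon signal genes tested, 3 were called and rose, beside 46.2% of all genes called. Among them Ifngr2, a chain of the interferon-gamma receptor, rose by 2.13. Ifnb1 had at most 2 counts and Ifng at most 11 in any of the 42 libraries, and 31 libraries held no count of Ifng. Macrophage markers took 0.228% to 0.341% of counts in the low-flow pools and 0.00754% to 0.0177% at high flow, and endothelial markers 0.411% to 0.558% and 0.956% to 1.13%. Smooth muscle markers took 0.232% to 0.43% at low and 0.0522% to 0.0617% at high flow, neutrophil markers 0.0235% to 0.0495% and 0.000661% to 0.00174%, and genes of cycling cells 0.0287% to 0.0631% and 0.00117% to 0.00341%. Fat cell markers went the other way, at 0.000118% to 0.00018% and 0.00874% to 0.137%. The part of these cell types in the levels of the 10 genes was not tested.

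The flow comparison was repeated in treated mice, within a fit of all 7 groups of 2 libraries. In IgG-treated mice the transporter subunit Tap2 was lower at low flow, at 36.6 and 19.9 FPKM against 71 and 52.9 at high flow (log2 fold-change -1.13 ± 0.36, n = 2 and 2, adjusted p = 0.0272, edgeR). It was the only 1 of 10 called, a share below the 40.5% of genes called. With PBS liposomes Tap2 was at 23.8 and 19.7 FPKM against 55.1 and 59.2 (log2 fold-change -1.39, adjusted p = 0.0128, edgeR), and Tapbp at 195 and 139 against 410 and 451 (-1.36, adjusted p = 0.0136), which made 2 of 10, with 35.0% of genes called. Neither gene overlapped between low and high flow in these mice. Groups did not overlap, with low flow below, for 4 members with IgG (34.1% of genes) and for 8 with PBS liposomes (35.1% of genes).

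The immunoproteasome subunits were not called in these mice. With IgG their log2 fold-changes were between -0.04 (Psmb9) and 0.12 (Psmb8). With PBS liposomes Psmb8 was at -0.42 and Psmb9 at -0.41, both without overlap and with low flow below, and Psmb10 was at 0.01. Psmb5, Psmb6 and Psmb7 rose in both, 3 of 3 called, by 1.81, 1.56 and 1.02 with IgG (40.5% of all genes called) and by 2.00, 1.88 and 1.70 with PBS liposomes (35.0%). The ratio of Psmb8 to Psmb5 was therefore again lower at low flow, at 0.55 and 0.301 against 1.57 and 1.1 with IgG, and at 0.239 and 0.261 against 1.36 and 1.32 with PBS liposomes. The difference between the 2 control treatments in the response to flow was called for no member (0.00% of genes, edgeR; none of the 10 at an unadjusted p under 0.05), with estimates up to 0.63 ± 0.50 for Tapbp. All low-flow libraries of treated mice are from one sequencing set and all high-flow libraries from a later one, so flow and set cannot be told apart here. Endothelial markers took 0.595% and 0.45% at low against 1.79% and 1.8% at high flow with IgG, and 0.44% and 0.42% against 1.33% and 0.997% with PBS liposomes. Macrophage markers took 0.261% and 0.236% against 0.00989% and 0.0298% with IgG, and 0.138% and 0.234% against 0.0136% and 0.0236% with PBS liposomes. Smooth muscle markers took 0.437% and 0.472% against 0.0508% and 0.0762% with IgG, and 0.589% and 0.302% against 0.0483% and 0.0923% with PBS liposomes. Neutrophil markers took 0.0376% and 0.0121% against 0.000456% and 0.00456% with IgG, and 0.0107% and 0.0333% against 0.00162% and 0.000753% with PBS liposomes. Genes of cycling cells took 0.0411% and 0.0655% against 0.00314% and 0.00192% with IgG, and 0.00866% and 0.0615% against 0.000462% and 0.0231% with PBS liposomes. Their part in the class I values was not tested. The Tap2 call with IgG was lost without high-flow library 1 or low-flow library 2, and both PBS calls without high-flow library 1 or low-flow library 2 of that treatment, to 0 called in each.

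Depletion of blood cells was compared at low flow, where the libraries share a sequencing set. All 10 genes lay higher with each of the 3 depletions than in the matched control. In mice given anti-GPIba, Tap2 and Tapbp rose, by 1.41 and 1.15 on the log2 scale. Anti-Gr1 gave larger fold-changes for all 10 but no call, and this excess over anti-GPIba leaned on its library 1. Clodronate gave no call either.

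Tap2 was at 85.8 and 64.8 FPKM with anti-GPIba and at 36.6 and 19.9 with IgG (log2 fold-change 1.41 ± 0.36, n = 2 and 2, adjusted p = 0.032, edgeR). Tapbp was at 566 and 477 FPKM against 282 and 187 (1.15 ± 0.36, adjusted p = 0.0482, edgeR). Both genes were separated between the groups, and both calls were lost when any 1 of the 4 libraries was left out, when 1 to 89 genes were called in all. These were 2 of 10 members, with 16.5% of genes called, a share near the background. H2-K1 was at 1514 and 1201 FPKM against 1106 and 542, H2-D1 at 3305 and 2941 against 2135 and 1390, and B2m at 2262 and 2246 against 2672 and 1559. The heavy chains did not overlap between the groups and the light chain did. Tap1 was at 28.8 and 14.9 FPKM against 19.6 and 9.45, and Nlrc5 at 0.952 and 1.19 against 1.2 and 0.404. Psmb8 was at 144 and 150 FPKM against 136 and 86.2, Psmb9 at 82.5 and 76.6 against 61.6 and 32.5, and Psmb10 at 89.6 and 98.2 against 75.4 and 45.7. The 3 immunoproteasome subunits did not overlap, but their fold-changes of 0.40, 0.76 and 0.63 did not pass the test. In all, 10 of 10 members lay above 0, as did 48.2% of genes, and 7 of 10 were non-overlapping with depletion above, as were 34.5% of genes. IgG library 2 had the lowest value of the 4 for each of the 10 members. IgG library 1 was above both anti-GPIba libraries for B2m and Nlrc5, so that the shared direction of all 10 depended on IgG library 2.

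Anti-Gr1 was compared with the same 2 IgG libraries, so the 2 antibody comparisons are not independent. All 10 members lay above 0 (50.0% of genes did), from 0.50 for B2m to 1.79 for Nlrc5, and the median was 0.91 against 0.00 over all genes. None was called by edgeR (0.00% of genes were), although the unadjusted p was under 0.05 for 6 members and for 2432 of 13401 genes. By DESeq2 1 member, Tap2, was called, with 0.852% of genes. Tap2 was at 87.8 and 66.2 FPKM and Tapbp at 630 and 448 with anti-Gr1, close to the values with anti-GPIba. Library 1 held the higher value of 9 members, with Psmb8 at 277 against 135 FPKM. The exception was Nlrc5, at 2.37 and 3.18. The groups did not overlap for 6 members, as did 21.8% of genes. Set against anti-Gr1 directly, anti-GPIba had all 10 members below 0, with none called (0.00% of genes, edgeR) and 1 at an unadjusted p under 0.05. The difference was -0.03 ± 0.35 for Tap2 and -0.05 ± 0.35 for Tapbp, which leaves room for differences of either sign. Averaged over the 10 members, log2(FPKM + 1) minus the gene's mean over the treated libraries was 0.90 and 0.25 in anti-Gr1 libraries 1 and 2. It was 0.38 and 0.20 with anti-GPIba, so that the shared direction leaned on anti-Gr1 library 1.

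Clodronate against PBS liposomes gave fold-changes from 0.44 for B2m to 1.34 for Nlrc5, all 10 above 0 (48.2% of genes), with a median of 0.85 against -0.02. None was called by edgeR (0.119% of genes were), with 4 members at an unadjusted p under 0.05, and 0 by DESeq2. The groups did not overlap for 9 of 10 members and 23.9% of genes, the exception being B2m. The 2 clodronate libraries differed for every member, Tapbp for example at 484 and 228 FPKM against 195 and 139 with PBS liposomes. By the same average as for anti-Gr1, clodronate libraries 1 and 2 were at 0.60 and -0.27, against -0.52 and -0.56 with PBS liposomes. The rise was thus larger in library 1.

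**Figure D2:**
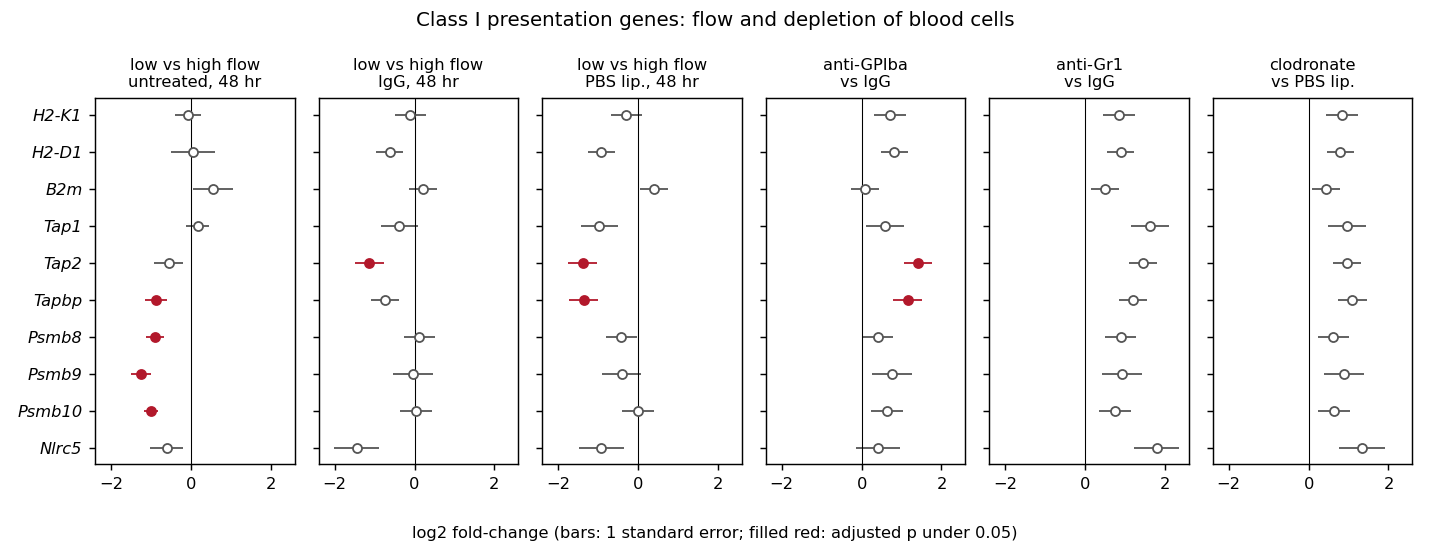
Log2 fold-change of each of the 10 genes (points, with bars of 1 SE) for low against high flow in untreated, IgG-treated and PBS liposome-treated mice, and for 3 depletions against their controls at low flow; filled red points have an adjusted p under 0.05 by edgeR. Points lie mostly left of 0 for flow and all 10 lie right of 0 for each depletion, where Tap2 (1.41) and Tapbp (1.15) with anti-GPIba are the filled ones.

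The constitutive subunits went the opposite way with platelet depletion as well. Psmb5, Psmb6 and Psmb7 fell by 1.32, 1.06 and 1.35 on the log2 scale with anti-GPIba, 3 of 3 called by edgeR with adjusted p of 0.0248, 0.0333 and 0.0258, where 16.5% of all genes were called. With anti-Gr1 and clodronate, 3 of 3 lay below 0, with medians of -0.88 and -0.66, and none was called. The ratio of Psmb8 to Psmb5 was 1.54 and 1.24 with anti-GPIba and 2.04 and 0.893 with anti-Gr1, against 0.55 and 0.301 with IgG. With clodronate it was 1.16 and 0.387, against 0.239 and 0.261 with PBS liposomes. In each depletion both libraries were above both controls. The high-flow libraries with IgG, from a later sequencing set, were at 1.57 and 1.1 in this ratio. Psmb10 over Psmb7 was 1.81 and 1.83 with anti-GPIba, 2.49 and 0.748 with anti-Gr1, and 0.596 and 0.337 with IgG. At high flow with IgG it was 1.03 and 0.781, so that anti-GPIba lay above high flow in that ratio.

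Of the other pathway genes, 40 were tested with anti-GPIba, with 1 called upward and 8 downward, beside 16.5% of all genes called. None of 9 further heavy chains was called, with H2-T23 at 1.52 (adjusted p = 0.0569, edgeR). Calr and Canx fell by 1.12 and 0.85 on the log2 scale, Irf8 fell by 3.50 and Ifngr2 fell by 1.24, while Irf2, which represses or activates interferon-responsive promoters, rose by 0.85. Calr, Canx, Irf8 and Ifngr2 had been called in the opposite direction by low against high flow in untreated mice. Macrophage markers took 0.261% and 0.236% of counts with IgG, 0.0256% and 0.0342% with anti-GPIba and 0.134% and 0.138% with anti-Gr1. They took 0.138% and 0.234% with PBS liposomes and 0.0265% and 0.0255% with clodronate. Endothelial markers took 0.595% and 0.45% with IgG, 1.06% and 1.05% with anti-GPIba and 0.799% and 0.959% with anti-Gr1, and 0.44% and 0.42% with PBS liposomes against 0.967% and 0.632% with clodronate, so that they were higher without overlap in each depletion. Genes of cycling cells took 0.0411% and 0.0655% with IgG, 0.00126% and 0.00088% with anti-GPIba and 0.00505% and 0.00304% with anti-Gr1, and 0.00866% and 0.0615% with PBS liposomes against 0.00194% and 0.0639% with clodronate. Dendritic cell markers took 0.0075% and 0.00707% with IgG, 0.00255% and 0.00208% with anti-GPIba and 0.00443% and 0.00474% with anti-Gr1, and T and NK cell markers 0.00377% and 0.00276%, 0.00185% and 0.000609%, and 0.00192% and 0.0012%. Fibroblast markers took 0.0258% and 0.0229% with IgG, 0.0408% and 0.0853% with anti-GPIba and 0.0835% and 0.0706% with anti-Gr1. Smooth muscle markers took 0.437% and 0.472% with IgG, 0.0722% and 0.102% with anti-GPIba and 0.18% and 0.623% with anti-Gr1, and neutrophil markers 0.0376% and 0.0121%, 0.000396% and 0.00115%, and 0.00203% and 0.00337%. With PBS liposomes and clodronate, neutrophil markers took 0.0107% and 0.0333% against 0.00294% and 0.00363%, and smooth muscle markers 0.589% and 0.302% against 0.244% and 0.27%. The part of these cell types in the class I values was not tested.

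**Figure D3:**
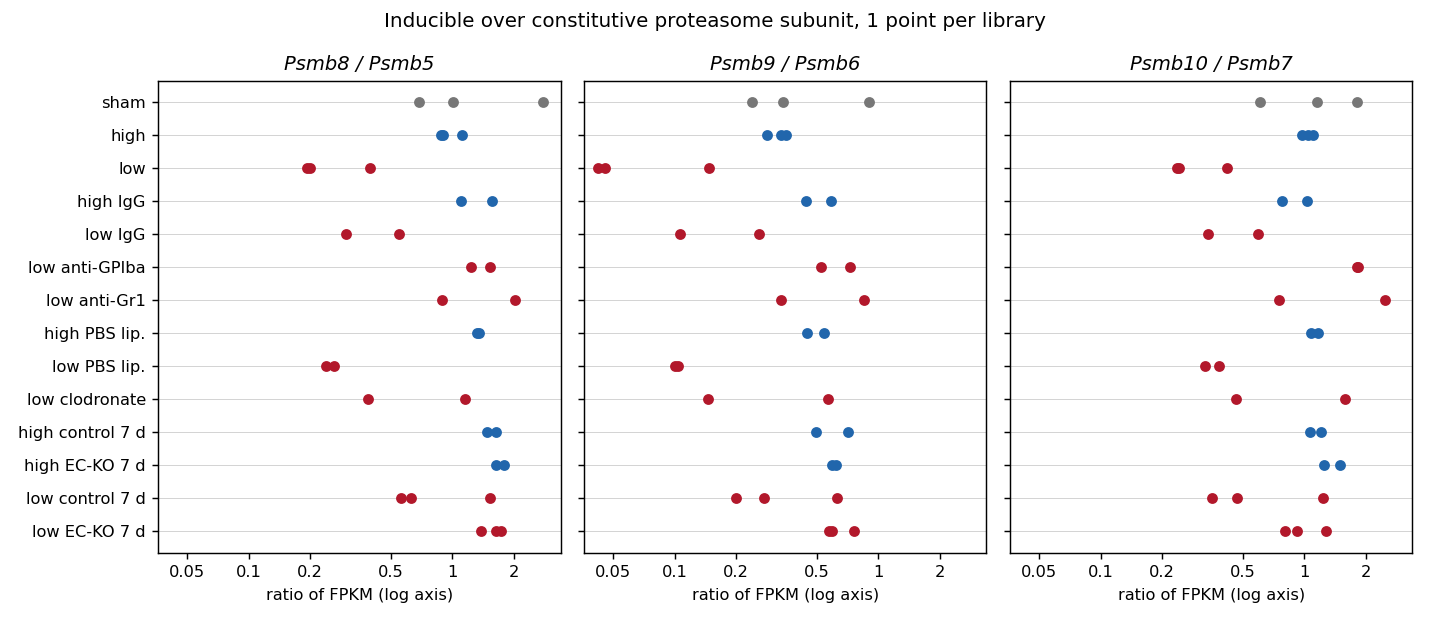
Ratio of each inducible proteasome subunit to the constitutive subunit it replaces (FPKM over FPKM, log axis), 1 point per library, for the 14 groups of artery libraries; low flow in red, high flow in blue, sham in grey. At 48 hr the low-flow groups without depletion lie to the left, with Psmb8 over Psmb5 at 0.193 to 0.55, and the low-flow groups with anti-GPIba lie at 1.24 to 1.54.

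At 7 d the deletion was checked first. Rbfox2, which encodes a splicing factor, was at 3.11, 5.58 and 2.76 FPKM in low-flow control libraries 1, 4 and 5 and at 1.08, 0.174 and 0.603 in the EC-KO. At high flow it was at 3.73 and 4.05 in controls and 0.775 and 1.08 in the EC-KO, so that every EC-KO library was below every control. The cells that do not express the Cre keep the gene.

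Whether the class I genes differ with Rbfox2 at low flow rested on 1 library. All 10 were higher on average in the EC-KO, and none passed the test. H2-K1 was at 1459, 1453 and 1522 FPKM in the EC-KO (libraries 1, 4 and 5) and at 1604, 695 and 740 in controls. H2-D1 was at 3148, 2857 and 2748 against 3405, 1325 and 1382, and B2m at 2469, 2415 and 3248 against 3222, 1587 and 1330. Control library 1 thus stood with the EC-KO libraries for the heavy and light chains, and controls 4 and 5 at about one level below them. Tapbp was at 524, 384 and 481 FPKM against 461, 186 and 247. Tap1 was at 36.1, 37.9 and 61.4 against 37.6, 26.4 and 20.1, and Tap2 at 98.8, 91.1 and 75.1 against 75, 40.1 and 44. Tap2 was the only member whose groups did not overlap, with EC-KO above, as held for 4.25% of genes, and its margin over control library 1 was small. Psmb8 was at 177, 136 and 197 FPKM against 195, 95.6 and 81.1, Psmb9 at 77.8, 56.3 and 89.9 against 106, 31.5 and 33, and Psmb10 at 91.5, 59.1 and 80.5 against 93.4, 36.9 and 45.3. Nlrc5 was at 3.29, 4.87 and 5.22 against 4.48, 1.72 and 0.932. The immunoproteasome subunits and Nlrc5 showed the same order, with control library 1 among or above the EC-KO and the other controls below.

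The log2 fold-changes ran from 0.39 (Psmb9) to 0.90 (Nlrc5), all 10 above 0 where 46.3% of genes were, with a median of 0.53 against -0.04 over all genes. None was called by edgeR (0.00% of genes were), with 2 members and 880 genes at an unadjusted p under 0.05. Without control library 1, 9 of 10 members were called higher in the EC-KO (11.1% of genes called), with a median of 1.06 and log2 fold-changes from 0.90 (B2m, adjusted p = 0.0572, edgeR, not called) to 1.75 (Nlrc5). Library 1 of both genotypes came from the second sequencing set and the others from later sets. Without both of them, 5 members were called (2.84% of genes), H2-K1 at 1.05, H2-D1 at 1.05, Tap2 at 0.99, Tapbp at 1.00 and Nlrc5 at 1.93. With all libraries and the set as a term, 0 were called; these last alternatives were chosen after the data were seen. Other markers differed among the same libraries. Genes of cycling cells took 0.0883% and 0.113% of counts in controls 4 and 5, 0.00779% in control 1 and 0.0102% to 0.0359% in the EC-KO. Endothelial markers took 0.486% and 0.55% in controls 4 and 5, 1.1% in control 1 and 0.773% to 0.941% in the EC-KO. T and NK cell markers took 0.0277% in control 1 and 0.000785% to 0.0072% in the other 5. Fibroblast markers took 0.0841%, 0.402% and 0.0856% in the EC-KO and 0.0786%, 0.0447% and 0.0197% in controls, without overlap, and neutrophil markers 0.0417% in control 4 and 0.000826% to 0.00342% in the other 5. Their part in the difference was not tested.

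**Figure D4:**
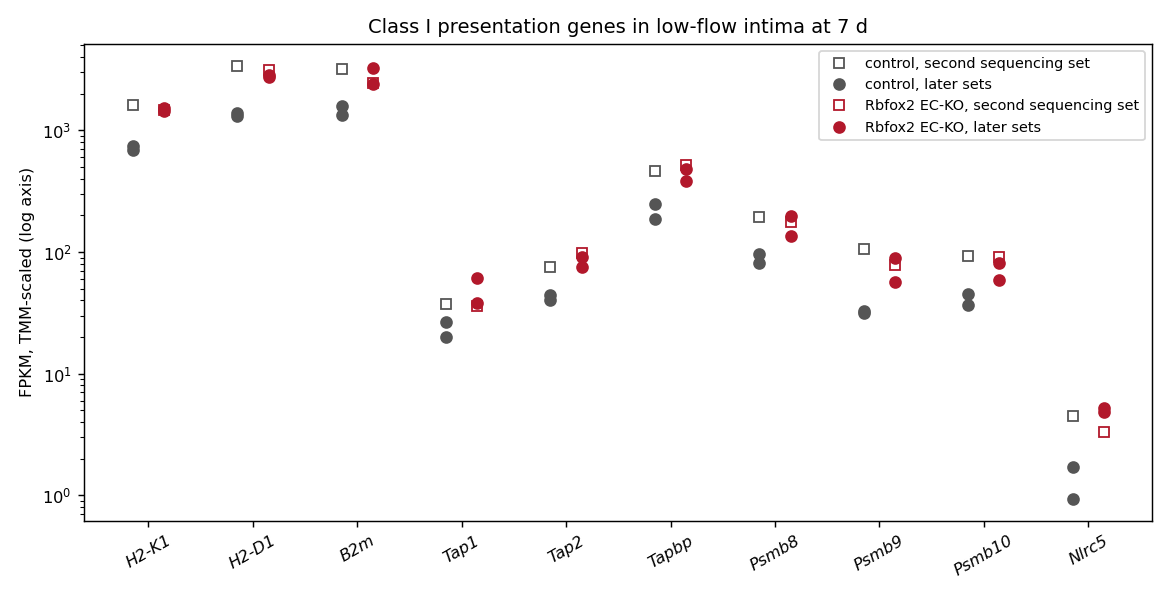
Level of each of the 10 genes (TMM-scaled FPKM, log axis) in low-flow intima at 7 d, 1 point per library, with controls in grey and Rbfox2 EC-KO in red; open squares are the libraries of the second sequencing set and filled circles those of later sets. For 9 genes the open grey square, control library 1, sits at or above part of the EC-KO points (H2-K1 at 1604) while the 2 filled grey circles sit below all of them (695 and 740).

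At high flow 8 of the 10 members lay above 0, as did 52.2% of genes. The groups did not overlap, with the EC-KO above, for 7 members and for 20.5% of genes, and none was called by edgeR (0.00749% of genes were, 1 gene). Tap1 was at 33.8 and 40.7 FPKM in the EC-KO and 18.8 and 19 in controls, a log2 fold-change of 0.98 ± 0.34 that was the 1 member with an unadjusted p under 0.05 (adjusted p = 1, edgeR). T and NK cell markers took 0.0543% and 0.0053% in these EC-KO libraries and 0.00236% and 0.000222% in controls. Genes of cycling cells took 0.0155% and 0.00412% against 0.00242% and 0.00255%, and endothelial markers 1.7% and 1.67% against 1.55% and 1.65%. Neutrophil markers were lower, at 0.000778% and 0.000189% against 0.00184% and 0.00129%. The part of these markers was not tested. The response to flow at 7 d was not called for any member. In controls 0 of 10 passed (2.40% of genes called), with fold-changes from -0.60 (Psmb10) to 0.57 (Tap1), and in the EC-KO 0 of 10 (1.09% of genes called), from -0.45 (Psmb10) to 0.43 (Nlrc5). No member had an unadjusted p under 0.05 in either. Without control library 1, 8 members were called lower at low flow in controls (29.4% of genes called), among them Psmb9 at -1.26, Psmb10 at -1.11 and H2-D1 at -1.04. Without both libraries of the second set 7 were (29.2% of genes). With the term for the second set against the later ones 2 were, Tap2 and Psmb10 (22.8% of genes). A block for library number also gave 2, with more genes called in all than in the main fit. In low-flow controls 4 and 5 against high-flow controls, endothelial markers took 0.486% and 0.55% against 1.55% and 1.65%, smooth muscle markers 0.14% and 0.129% against 0.0293% and 0.0388%, and genes of cycling cells 0.0883% and 0.113% against 0.00242% and 0.00255%. Control 1 was at 1.1%, 0.176% and 0.00779%. Macrophage markers took 0.0554%, 0.192% and 0.0377% in low-flow controls 1, 4 and 5 against 0.0158% and 0.00715% at high flow, and the part of these markers was not tested. The difference between genotypes in the flow response was tested directly, and 0 members were called (0.00% of genes, edgeR; none of the 10 at an unadjusted p under 0.05).

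The ratio of Psmb8 to Psmb5 at 7 d was 1.54 in low-flow control 1, 0.558 and 0.627 in controls 4 and 5, and 1.63, 1.38 and 1.73 in the EC-KO. It was 1.48 and 1.63 in high-flow controls. Controls 4 and 5 at low flow were the only 7 d libraries below 1 in this ratio, and this did not depend on the scaling of libraries. They were lowest in the other ratios too, but a cut at 1 did not set them apart. Psmb10 over Psmb7 was 0.353 and 0.467 in them and 0.804 and 0.922 in low-flow EC-KO 4 and 5. Psmb9 over Psmb6 was 0.199 and 0.275 in them and 0.493 to 0.756 in the other 7 d libraries.

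**Figure D5:**
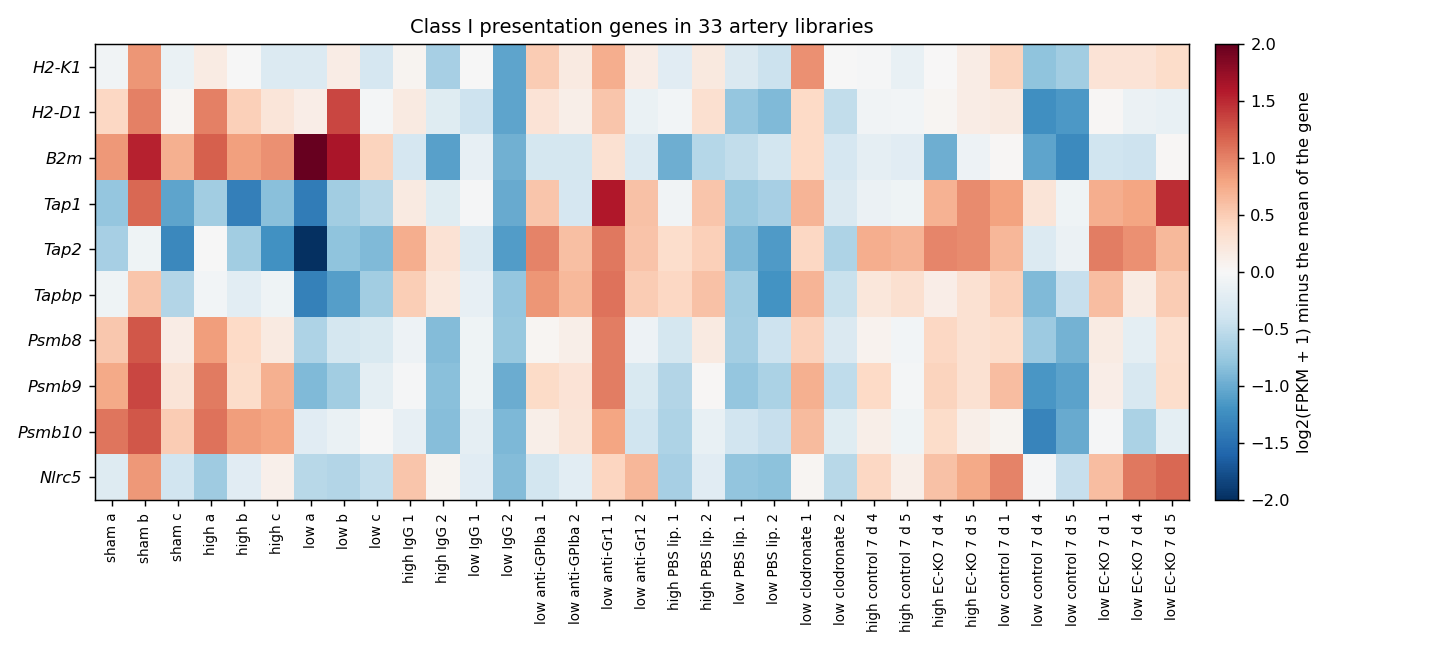
Each of the 10 genes in the 33 artery libraries, as log2(FPKM + 1) on TMM-scaled library sizes minus the mean of the gene; red is above and blue below that mean, on a scale from -2 to 2. Anti-Gr1 library 1, clodronate library 1 and 7 d low-flow control 1 are red for all 10 genes, and the low-flow libraries with IgG or PBS liposomes, clodronate library 2 and 7 d low-flow control 5 are blue for all 10.

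Within the artery libraries the 10 genes differed in how closely they kept together. The root mean square distance from their common mean, on centred log2(FPKM + 1) with plain library totals over 33 libraries, was 0.19 for H2-K1 and 0.22 for Psmb8, and largest for B2m at 0.76. By mean level in TMM-scaled FPKM, B2m was first and H2-D1 next in 7 of the 14 artery groups and the reverse in the other 7, H2-K1 was next and Nlrc5 last in all 14. In the untreated low-flow pools the means were 6359 FPKM for B2m, 3280 for H2-D1, 758 for H2-K1 and 0.573 for Nlrc5. B2m and H2-D1 overlapped in their ranges there, as the pools of H2-D1 reached 5451 and those of B2m went down to 3107. Outside the 10, the genes nearest to their common pattern among 11362 genes were Irf9 (distance 0.20, Pearson's r = 0.94), a subunit of the interferon-activated complex ISGF3, Irf1 (0.26, r = 0.93), an interferon-induced transcription factor, Siae, Yipf2 and Tapbpl (0.28 to 0.30). The libraries share groups, depth and scaling, so that r is a description only. With 48 hr libraries alone, Irf9 was the 1 gene of these 5 that stayed among the nearest.

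Cultured cells gave 1 library per condition, so that differences have no replicate check, and no test was made. In the aortic line all 10 genes were lower after combined exposure to plasma, platelets and macrophages than in untreated cells, with a median log2 ratio of -0.84 against -0.01 over all genes (50.5% of which lay below 0). B2m was at 1709 FPKM against 5754, H2-K1 at 221 against 483, Psmb9 at 11.4 against 48.5 and Nlrc5 at 1.23 against 3.93, on library totals. These were log2 ratios of -1.67, -1.04, -2.0 and -1.60 after TMM scaling. Plasma alone left the members on both sides of 0 (5 below, median 0.03), as did platelets with macrophages (2 below, median 0.14), B2m being below 0 in both, at -0.61 and -0.57. The Psmb8 to Psmb5 ratio was 0.476 in untreated cells, 0.615 after plasma, 0.694 after platelets with macrophages and 0.18 after the combination. Macrophage markers took 0.00538% of counts in untreated cells, 0.00683% after plasma, 0.0405% after platelets with macrophages and 0.0309% after the combination, and genes of cycling cells 0.0534%, 0.0777%, 0.0561% and 0.0939%; their part was not tested. The line held few endothelial transcripts: endothelial markers took 0.0375% to 0.0402% of counts, with Cdh5 at 1.86 to 5.75 FPKM and Erg at 0.0329 to 0.173, where the arteries held 21.6 to 74.1 and 5.44 to 20.

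In primary cells Rbfox2 was at 0.675 FPKM on library totals in the KO and 9.33 in the control. All 10 members were higher in the KO, with a median log2 ratio of 0.45 against -0.00 over all genes. Tap1 was at 18.9 against 10.6 FPKM and Psmb8 at 36.6 against 20.5 on library totals, both 0.81 on the log2 scale after TMM scaling, while Tap2 was at 22.2 against 21.2. Macrophage markers took 0.00122% of counts in the KO and 0.0345% in the control, and their part was not tested. The eGFP-sorted primary library held Psmb9 at 18.2 FPKM, against 6.39 in the KO and 4.56 in the control, but Tap1 at 4. It came from an earlier sequencing set with shorter reads and was taken on day 5 of culture, the Rbfox2 libraries on day 7. The ratio of Psmb8 to Psmb5 was 0.154 in the eGFP-sorted library, 0.2 in the KO and 0.119 in the control, where the lowest artery library was at 0.193.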

How the data were processed

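RNA of carotid intima and cultured endothelium was sequenced with a low-input kit. Per gene, the authors gave expected counts from RSEM together with RPKM values in the deposited table, and the submitters' processing notes name STAR 2.5.1b, RSEM 1.2.15 and mm9. The expected counts were rounded to whole numbers. One entry without a gene name was left out of 21675, and 137 of 204 columns of values were not used. Untreated libraries have 2 runs, of which the first was used. The deposited RPKM served only to check levels: FPKM computed here were 0.799 (Psmb9) to 0.975 (Nlrc5) of the deposited values at the median over 25 libraries. Where stated, levels used a pseudocount of 1.

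Comparisons used edgeR 4.0.16 (quasi-likelihood test, TMM, filterByExpr, R 4.3.3) with Benjamini-Hochberg adjustment over all genes tested and a threshold of 0.05. Untreated groups were fitted in pairs, the 7 treated groups together and the 4 groups of 7 d together. All 10 members passed the filter in every comparison. The code was tested on simulated data with 200 changed genes. DESeq2 1.42.0, other scalings, no filter, a log2 fold-change of at least 1, leave-one-out and a block for library number were alternatives. The study describes the untreated pools as biological triplicates, and for the other artery groups the labels say that each library is a separate pool of arteries. Same-numbered low-flow libraries of the 2 genotypes at 7 d deviated together (r = 0.489, 0.17 and 0.272 over genes). So did those of clodronate and PBS liposomes at low flow (r = 0.416) and of low and high flow with PBS liposomes (0.378). Low and high flow with IgG did not (-0.017). Whether shared numbers mark pairs is not given, so the main fits had no block and the block was an alternative.

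The members and the pathway and marker lists were chosen with earlier results of these data known. All 10 members are named in every comparison, and of each pathway list up to 4 genes with the largest log2 fold-change. The subunit ratios were added after values were seen. Positions are from GENCODE vM1, and promoter sequences from RefSeq. Counting intervals and floors cover counting error only.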

Additional observations from a re-analysis of the deposited data

Results flagged for a closer look

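The pair of low-flow libraries of 100 bp reads, 1 from a clodronate-treated and 1 from a PBS liposome-treated pool, entered no comparison of the report. Their members were looked at because clodronate exceeded the PBS control library beyond counting error. Per library total, the ratio of clodronate to PBS was 1.95 for H2-K1, 1.76 for H2-D1, 1.64 for B2m, 1.64 for Tap1, 1.72 for Tap2, 1.52 for Tapbp, 1.79 for Psmb8, 2.08 for Psmb9 and 1.73 for Psmb10. Nlrc5, with 57 and 31 counts, was at 1.63 and within counting error. The median ratio over 10273 genes was 0.98, and 46.6% of genes lay above 1. All 10 members thus lay above 1, as they lay above 0 in the 150 bp libraries, but with 1 library a side there is no replicate check. The 2 libraries differ also in macrophage markers, at 0.0231% of counts with clodronate and 0.166% with PBS. Neutrophil markers were at 0.00866% and 0.0372%, dendritic cell markers at 0.000712% and 0.00362%, and endothelial markers at 0.702% and 0.515%. The part of these markers was not tested.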

How the results depend on the processing

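Counts of members called, out of 10, changed as follows. For untreated low against high flow, 4 became 2 with a log2 fold-change of at least 1, which also lowers the calls over all genes. With library totals 7 were called, beside 36.7% of genes. For low flow against sham, 4 became 9 with library totals, beside 30.1% of genes, and 5 with no filter. Fewer remained in both with pool c alone, as given above. With library totals H2-D1 turned from 0.04 to -0.72 and from 0.04 to -0.78 in these comparisons, and B2m from 0.55 to -0.28 and from 0.38 to -0.49, not called. For flow with IgG, 1 became 2 with DESeq2 and 2 with the replicate block (Tap2 and Tapbp). With PBS liposomes, 2 became 4 when the 2 groups were fitted alone and 3 with DESeq2, with library totals or with the block. Over the alternatives that kept all libraries, 4390 to 6071 genes were called with IgG, beside 5422 in the main fit. With PBS liposomes 3728 to 5420 were, beside 4692. For anti-GPIba, 2 became 1 with RLE scaling, 1 with library totals and 3 with the 2 groups alone or with the block, and for anti-Gr1 0 became 1 with DESeq2. Over the alternatives that kept all libraries, 1814 to 4449 genes were called for anti-GPIba, beside 2216 in the main fit. For anti-Gr1 0 to 225 were, beside 0. At 7 d, EC-KO against control at low flow went from 0 to 5 without both libraries of the second set (2.84% of genes) and stayed at 0 with the block. Flow in controls went from 0 to 2 with the block, 7 without both libraries (29.2% of genes) and 2 with a term for the second set against the later ones (22.8%). The causes were not tested.

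Leaving out 1 library at a time gave 3 to 5 for untreated low against high flow (35.5% to 47.8% of genes called) and 2 to 5 against sham (21.9% to 41.8% of genes). It gave 0 to 9 for the EC-KO at low flow (0 to 1476 genes). For flow in controls at 7 d it gave 8 without low-flow control 1 (29.4% of genes). For flow with IgG or PBS liposomes, anti-GPIba and clodronate it left 1 library in a group, so counts are not compared. Calls lost there are given above. Leaving out 1 library called no member in the other comparisons. The block moved the calls over all genes from 320 to 2940 for flow in controls at 7 d and from 146 to 1317 in the EC-KO. With anti-GPIba, all-gene calls went from 2216 to 3683 with DESeq2. No paired analysis of the untreated pools was made, because their columns carry letters and no replicate numbers. Low and high flow are the 2 carotids of ligated mice, so their pools may share animals. Which pools do is not given, and the main fits treat low and high flow as unpaired. The second run of these pools and the sum of both runs were planned but not run. Depth limits Nlrc5 most, with 9 counts in its lowest library, and 2 libraries a group limit the treated comparisons.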
